A study of Mus musculus with 12 samples.

Results

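The 10 genes described here carry glucose into the cell and through glycolysis, or set how much of the product enters the citric acid cycle. They are *Slc2a1*, *Hk2*, *Pfkp*, *Pfkfb3*, *Aldoa*, *Pgk1*, *Pkm*, *Ldha*, *Pdk1* and *Pdk4*, taken by name from a count table of 54352 gene symbols, in which all 10 were found and passed the filter on low counts in every comparison. RNA was sequenced from primary fibroblasts of the adventitia, which is the outer, connective tissue coat of the aorta, of C57Bl/6 mice with the genotype WT. Cells were grown from pieces of adventitia of the ascending aorta, taken with the aortic root, or of the descending thoracic aorta, in DMEM with serum, and received solute control or mouse TGFb at 10 ng/mL for 48 h. TGFb, transforming growth factor beta, is a cytokine that turns fibroblasts into contractile, matrix-producing cells. The 4 groups were descending control, descending TGFb, ascending control and ascending TGFb, with 3 libraries in each. The questions were how each gene changed with TGFb at each site, how the sites differed under each treatment, and whether the change with TGFb differed between the sites. The labels give an age of 14 weeks, 1 passage and batch 1 for every library. The study's methods give a younger age, and its results text gives more passages. Neither source says whether the 3 libraries of a group came from separate animals or separate cultures, so the p-values measure the spread between these libraries, which may be technical. These were cultured cells out of the vessel wall, and in RNA of whole cultures fewer cells of a type and less RNA per cell cannot be told apart.

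Glycolysis splits glucose into pyruvate in the cytosol. *Slc2a1* encodes GLUT1, the widespread facilitative glucose transporter, and *Hk2* an inducible hexokinase that traps glucose as glucose 6-phosphate. *Pfkp* is the platelet-type subunit of phosphofructokinase 1, the committed step, and *Pfkfb3* makes fructose 2,6-bisphosphate, its strongest activator. *Aldoa* cleaves the sugar, *Pgk1* makes the first ATP of the pay-off phase, and *Pkm* makes pyruvate and ATP. *Ldha* turns pyruvate into lactate and regenerates NAD+. *Pdk1* and *Pdk4* are kinases that switch off the pyruvate dehydrogenase complex and so keep pyruvate out of the citric acid cycle. Many of these genes are known targets of the hypoxia-inducible factors and of Myc, and *Pdk4* is known as a fasting gene under PPAR and FOXO factors. Fibroblasts activated by TGFb are known to raise their glucose use.

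Between 16250126 and 23892943 counts per library lay on genes. Levels are given as normalized CPM, each library's counts scaled to a common total after TMM normalization, in which the floor of 3 counts lay at 0.117 to 0.207. The members had between 203 and 19932 counts in a library, so every value stood well above that floor, and floors cover counting error only. Descending control replicate 3 stood apart. It had a count on 13031 genes, against 19337 to 20931 in the other libraries, and 11.02% of its counts on mitochondrial genes, against 0.703 to 1.03%. Its level of the members was 0.490 times the mean of descending control replicates 1 and 2 for *Pgk1*, 0.500 times for *Ldha* and 0.519 times for *Hk2*, but 1.35 times for *Pfkfb3*, 1.33 times for *Pdk1* and 1.32 times for *Pkm*. Values of the members that use the descending controls are therefore given with and without this library. All 8 fibroblast markers were above the floor and summed to 17536 to 29647 normalized CPM. Lists of other cell types moved with treatment or site, and their part in the results was not tested. The 8 smooth muscle markers, none at the floor, summed to 1584 to 8388, and their values by group stand beside those of *Hk2*. The 6 endothelial markers, of which *Tie1* and *Emcn* were at or under the floor in every library, summed to 23.9 to 26.9 normalized CPM in the control groups, 9.24 to 11.2 in descending TGFb and 4.70 to 5.73 in ascending TGFb. The 6 adipocyte markers, with *Ucp1* at the floor, summed to 26.9 to 34.8 in descending control and 11.4 to 20.6 in descending TGFb. They summed to 0.913 to 6.05 in ascending control and at most 0.679 in ascending TGFb. The 4 mesothelial markers summed to 33.5 to 44.2 in ascending control, 19.6 to 26.5 in ascending TGFb and 6.90 to 13.9 in the descending groups. The 5 Schwann cell markers summed to 7.997 to 13.2 in the ascending and 2.50 to 10.1 in the descending groups, and the 6 cardiac markers, with *Myh6* at the floor, to at most 1.13.

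For the 6 members with the widest range of group means over all 12 libraries, the 250 bases before the transcription start are shown (RefSeq, GRCm38.p6), since hypoxia-inducible factors, known to act on many glycolysis genes, read the letters ACGTG or GCGTG. Without descending control replicate 3, *Pgk1* and *Ldha* would give way to *Pdk1* and *Pfkp* in this choice. Capitals mark this core on either strand, and the sequence CACGTG, the E-box read by Myc and its relatives, contains it. *Slc2a1* (chr4:119108495-119108744, plus strand), *Hk2* (chr6:82774455-82774704, minus strand), *Pfkfb3* (chr2:11553930-11554179, minus strand, the first of its annotated starts), *Pgk1* (chrX:106186850-106187099, plus strand), *Ldha* (chr7:46845554-46845803, plus strand) and *Pdk4* (chr6:5496279-5496528, minus strand) read as follows, 5′ to 3′.
Slc2a1: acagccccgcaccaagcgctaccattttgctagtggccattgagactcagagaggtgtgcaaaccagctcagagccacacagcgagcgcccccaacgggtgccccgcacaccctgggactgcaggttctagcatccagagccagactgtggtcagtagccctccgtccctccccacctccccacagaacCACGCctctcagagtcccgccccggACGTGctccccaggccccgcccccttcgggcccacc
Hk2: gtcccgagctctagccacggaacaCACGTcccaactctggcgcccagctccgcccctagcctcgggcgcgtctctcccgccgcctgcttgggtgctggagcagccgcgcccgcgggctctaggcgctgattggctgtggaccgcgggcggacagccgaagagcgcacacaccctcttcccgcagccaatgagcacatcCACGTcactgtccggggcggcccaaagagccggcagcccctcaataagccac
Pfkfb3: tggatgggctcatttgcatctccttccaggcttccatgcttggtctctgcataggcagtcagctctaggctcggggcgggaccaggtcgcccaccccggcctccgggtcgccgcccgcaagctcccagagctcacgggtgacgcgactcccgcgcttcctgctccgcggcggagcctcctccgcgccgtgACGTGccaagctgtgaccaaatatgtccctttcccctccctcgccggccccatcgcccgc
Pgk1: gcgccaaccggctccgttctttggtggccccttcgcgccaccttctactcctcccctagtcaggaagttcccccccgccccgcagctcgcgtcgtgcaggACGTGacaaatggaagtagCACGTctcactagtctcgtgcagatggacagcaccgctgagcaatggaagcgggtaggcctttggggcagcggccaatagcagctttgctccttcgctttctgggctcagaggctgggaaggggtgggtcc
Ldha: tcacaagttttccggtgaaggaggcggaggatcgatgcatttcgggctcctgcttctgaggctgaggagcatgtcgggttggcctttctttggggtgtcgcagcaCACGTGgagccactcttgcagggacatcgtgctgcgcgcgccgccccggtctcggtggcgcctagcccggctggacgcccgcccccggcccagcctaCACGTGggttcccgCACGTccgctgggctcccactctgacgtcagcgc
Pdk4: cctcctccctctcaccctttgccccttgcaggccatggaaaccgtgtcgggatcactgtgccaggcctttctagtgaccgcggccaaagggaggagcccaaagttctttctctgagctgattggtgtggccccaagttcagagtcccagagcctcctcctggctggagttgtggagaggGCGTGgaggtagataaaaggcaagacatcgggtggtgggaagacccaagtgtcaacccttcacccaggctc

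The core stood in this window at 13 of the 16 starts annotated for the members, with at least 1 such start in each of the 10 genes, against 38.6% of 32851 starts of all genes. The windows of *Aldoa* starts 2 and 3 overlap and hold the same match, at -126 and -202, which is counted at both. The members' windows were richer in G and C, with a median of 63.4% against 52.4%, and the part of base composition in the count was not tested. Counting from the start, with -1 the base before it, the core began at -61 and -36 in *Slc2a1*, at -226 and -52 in *Hk2*, at -60 in *Pfkfb3*, at -150 and -131 in *Pgk1* and at -71 in *Pdk4*. In *Ldha* it began at -145, -48 and -34, and the first and the second of these were CACGTG, which 6.02% of all starts held. A match describes the letters and is not a bound site.

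*Slc2a1* (chr4:119108711-119137983 in GRCm38), the gate of glucose entry, was lowest in descending controls and highest in descending TGFb. Its normalized CPM was 26.6, 26.8 and 17.5 in descending control replicates 1 to 3 and 43.8, 47.7 and 45.9 in descending TGFb. In ascending libraries it was 31.3, 35.4 and 30.0 in control and 35.3, 37.6 and 36.7 with TGFb. The descending groups did not overlap, while the ascending groups did, by the control library at 35.4 and the TGFb library at 35.3. The gene rose with TGFb at both sites, at a log2 change of 0.94 (standard error 0.19, edgeR adjusted p = 0.0393) in descending fibroblasts, 0.78 (standard error 0.07, edgeR adjusted p = 2.7e-10) without descending control replicate 3 and 0.18 (standard error 0.06, edgeR adjusted p = 0.0248) in ascending fibroblasts. The ascending change was small and ended at an edgeR adjusted p of 0.0816, 0.119, 0.0835 and 0.0583 when ascending control replicate 1 or 3 or ascending TGFb replicate 2 or 3 was left out. It was 0.065 with library totals (edgeR adjusted p = 0.401) and 0.18 with DESeq2 (adjusted p = 0.0889). With library totals the descending change was 0.83 (edgeR adjusted p = 0.119). The descending call was also lost without any library other than control replicate 3, with edgeR adjusted p between 0.0885 and 0.189. Ascending control was above descending control by 0.28 (standard error 0.08, edgeR adjusted p = 0.0121) without that library, and the value with it was 0.45 (95% confidence interval -0.04 to 0.94, edgeR adjusted p = 0.435).

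*Hk2* (chr6:82725025-82774454) had the widest range of the 10 genes, with group means 2.40 apart on the log2 scale. It was at 26.5, 27.4 and 14.0 normalized CPM in descending control, 97.3, 99.4 and 98.7 in descending TGFb, 19.7, 19.0 and 17.1 in ascending control and 58.2, 69.1 and 59.0 in ascending TGFb. Every TGFb library lay above every control library, and every descending TGFb library above every ascending TGFb library. With TGFb it rose 3.33-fold in ascending fibroblasts, a log2 change of 1.73 (standard error 0.07, edgeR adjusted p = 3.49e-12). In descending fibroblasts it rose 4.32-fold, a log2 change of 2.11 (standard error 0.27, edgeR adjusted p = 0.00963), and 3.66-fold without descending control replicate 3, 1.87 (standard error 0.06, edgeR adjusted p = 1.1e-20). Leaving out descending TGFb replicate 1, 2 or 3 put the descending value at an edgeR adjusted p of 0.0672, 0.0679 and 0.0679 at log2 changes of 2.12 to 2.13. Between the sites *Hk2* was lower in ascending TGFb than in descending TGFb, at a log2 difference of -0.66 (standard error 0.05, edgeR adjusted p = 3.13e-11), and lower in ascending control at -0.52 (standard error 0.08, edgeR adjusted p = 0.000151) without descending control replicate 3. With that library the control difference was -0.28 (95% confidence interval -0.95 to 0.39, edgeR adjusted p = 0.652).

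In ascending fibroblasts *Pfkp*, a catalytic subunit of the committed step, fell with TGFb, and *Pfkfb3*, an enzyme that makes its activator, rose. *Pfkp* (chr13:6579768-6648777) was at 53.9, 52.6 and 43.5 normalized CPM in descending control and 53.6, 49.7 and 54.3 in ascending control, which overlapped. It was at 54.8, 56.8 and 58.2 in descending TGFb and 38.1, 39.0 and 38.7 in ascending TGFb, the highest and the lowest of the 4 groups. The ascending change was -0.45 (standard error 0.05, edgeR adjusted p = 9.83e-07) on the log2 scale, and ascending TGFb lay below descending TGFb at -0.55 (standard error 0.05, edgeR adjusted p = 1.42e-09). In descending fibroblasts its value with TGFb was 0.17 (95% confidence interval -0.14 to 0.49, edgeR adjusted p = 0.478), and 0.09 (95% confidence interval -0.04 to 0.22, edgeR adjusted p = 0.237) without control replicate 3, which turned to -0.097 with library totals in place of TMM.

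*Pfkfb3* (chr2:11471433-11554077) was higher in ascending than in descending fibroblasts under both treatments. Its normalized CPM was 14.7, 16.1 and 20.7 in descending control, 26.4, 24.7 and 31.3 in descending TGFb, 38.5, 40.2 and 34.7 in ascending control and 49.0, 49.2 and 45.5 in ascending TGFb. The 4 groups followed each other in this order without overlap. The log2 fold change of ascending against descending was 1.14 (standard error 0.18, edgeR adjusted p = 0.0331) in control, 1.31 (standard error 0.08, edgeR adjusted p = 2.48e-08) without descending control replicate 3, and 0.80 (standard error 0.07, edgeR adjusted p = 2.04e-10) with TGFb. The gene rose with TGFb by 0.34 (standard error 0.06, edgeR adjusted p = 0.000132) in ascending fibroblasts, or 0.22 with library totals, and by 0.84 (standard error 0.10, edgeR adjusted p = 2.26e-08) in descending fibroblasts without control replicate 3, while all 6 libraries gave 0.67 (95% confidence interval 0.20 to 1.14, edgeR adjusted p = 0.0976). The control difference between sites was at an edgeR adjusted p of 0.12 to 0.224 when any 1 of the other 5 libraries was left out, at log2 fold changes of 1.05 to 1.21.

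**Figure D1:**
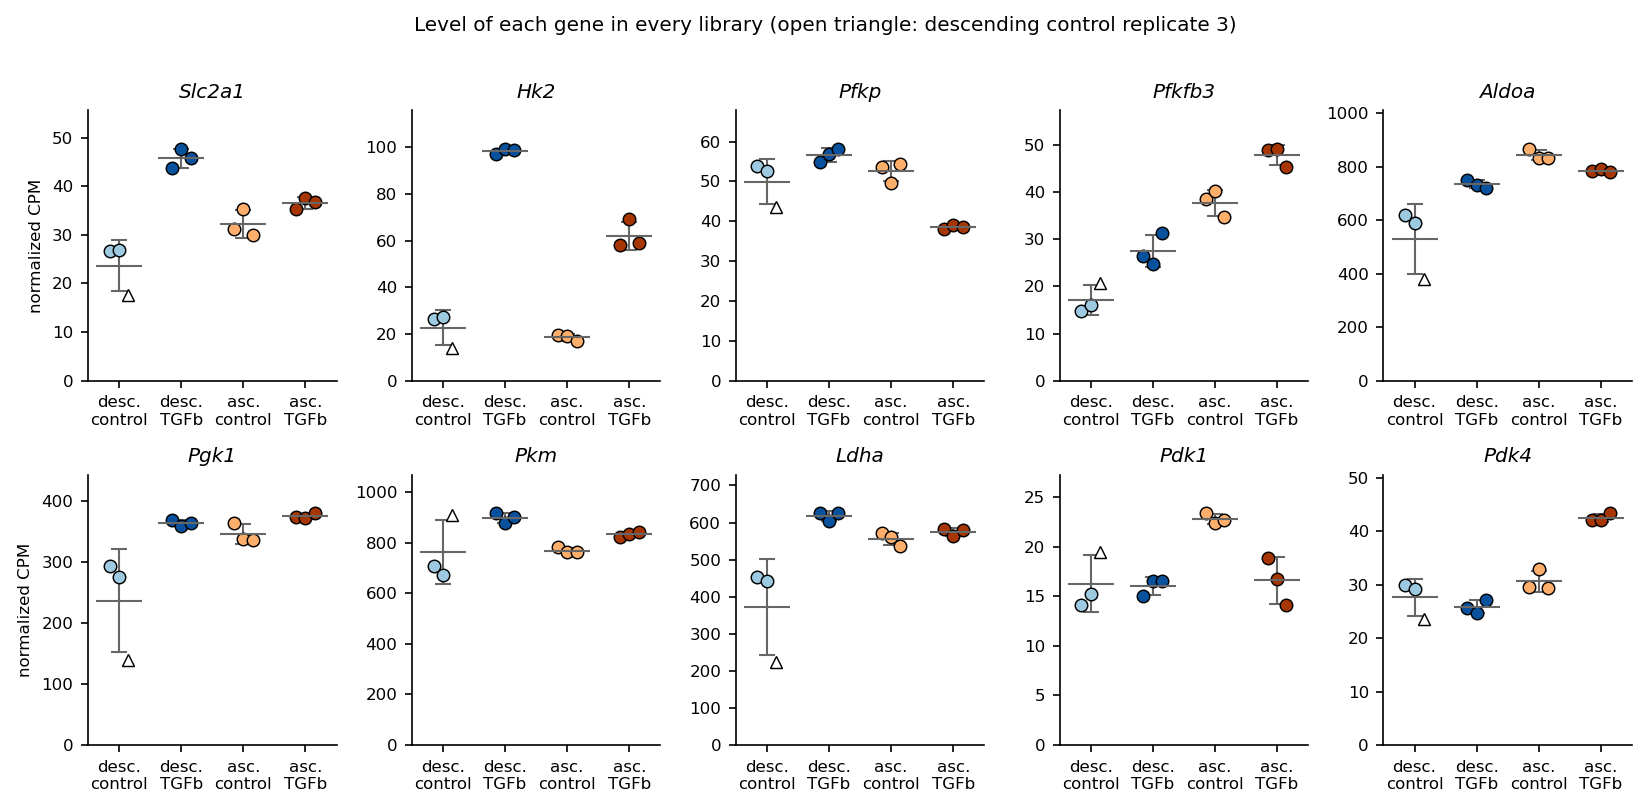
Normalized CPM (vertical axis, from 0) of the 10 genes in the 12 libraries, 1 panel per gene, with bars at the group mean and its SD over 3 libraries. Hk2 rose with TGFb at both sites and Pfkfb3 was higher in ascending groups, while the open triangle, descending control replicate 3, lay below its group for Slc2a1, Hk2, Pfkp, Aldoa, Pgk1, Ldha and Pdk4 and above it for Pkm, Pfkfb3 and Pdk1.

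*Aldoa*, *Pgk1*, *Pkm* and *Ldha* were the abundant enzymes of the set. Per kilobase of all annotated exons, a length that can exceed that of the transcripts made, the first 3 stood at 212 ± 1.57, 167 ± 1.95 and 167 ± 1.75 normalized CPM (SD, n = 3) in ascending TGFb, beside 174 ± 3.34 for *Ldha*. On the same scale *Pdk1* was at 2.14 ± 0.305, *Pfkp* at 2.88 ± 0.0345, *Pfkfb3* at 6.33 ± 0.279, *Hk2* and *Slc2a1* at 10.4 ± 1.02 and 10.4 ± 0.331, and *Pdk4* at 12.1 ± 0.215.

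*Aldoa* (chr7:126795234-126800751) was at 621, 590.3 and 381 normalized CPM in descending control, 752, 731 and 722 in descending TGFb, 867, 834 and 831 in ascending control and 786, 791 and 779 in ascending TGFb. The groups did not overlap, and the direction with TGFb differed: TGFb libraries lay above control in descending and below control in ascending fibroblasts. The log2 change was -0.11 (standard error 0.03, edgeR adjusted p = 0.00236) in ascending fibroblasts, or -0.22 with library totals, 0.46 (95% confidence interval -0.02 to 0.95, edgeR adjusted p = 0.23) in descending fibroblasts and 0.28 (standard error 0.05, edgeR adjusted p = 1.07e-05) there without control replicate 3, which was 0.095 (edgeR adjusted p = 0.0856) with library totals. Ascending control was above descending control by 0.49 (standard error 0.04, edgeR adjusted p = 1.72e-07) without that library, and the value with it was 0.68 (95% confidence interval 0.19 to 1.16, edgeR adjusted p = 0.203).

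*Pgk1* (chrX:106187100-106203699) was at 294, 276 and 139.6 normalized CPM in descending control and 369, 359.8 and 364 in descending TGFb. It was at 365, 338 and 336 in ascending control and 374, 372 and 380.2 in ascending TGFb, so that descending control was lowest, ascending TGFb highest, and the remaining groups overlapped. The change in descending fibroblasts was 0.62 (95% confidence interval -0.07 to 1.31, edgeR adjusted p = 0.258) and, without control replicate 3, 0.36 (standard error 0.05, edgeR adjusted p = 4.56e-07). In ascending fibroblasts it was 0.11 (standard error 0.03, edgeR adjusted p = 0.0109), which turned to -0.0044 with library totals and to an edgeR adjusted p of 0.0583 without ascending control replicate 3. With library totals the descending change without control replicate 3 was 0.17. Ascending control was above descending control by 0.29 (standard error 0.05, edgeR adjusted p = 0.000258) without that library, and the value with it was 0.56 (95% confidence interval -0.13 to 1.25, edgeR adjusted p = 0.483). Other genes also hold 53.9% of the 50-base stretches of its exons, mostly *Pgk1-rs7*, which had 1 to 12 counts in a library against 2024 to 8392 for *Pgk1*.

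*Pkm* (chr9:59656368-59679375) was at 707, 673 and 909.8 normalized CPM in descending control, 917, 878 and 901 in descending TGFb, 782, 763 and 762 in ascending control and 825, 835 and 842 in ascending TGFb. Descending control replicate 3 was the highest of its group and reached the TGFb libraries. The change with TGFb was 0.11 (standard error 0.03, edgeR adjusted p = 0.00159) in ascending fibroblasts, which turned to -0.0027 with library totals, and 0.23 (95% confidence interval -0.14 to 0.59, edgeR adjusted p = 0.411) in descending fibroblasts, or 0.38 (standard error 0.05, edgeR adjusted p = 6.41e-08) without control replicate 3, which was 0.20 with library totals. Counts per gene do not part the muscle-type and embryonic-type splice forms of *Pkm*, and 8 other annotated genes together hold 25.8% of the 50-base stretches of its exons.

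*Ldha* (chr7:46841475-46855627), the lactate-forming step, was at 453, 441 and 224 normalized CPM in descending control and 625, 603 and 625 in descending TGFb. In ascending fibroblasts it was at 571, 560.2 and 538 in control and 583, 562 and 579.5 with TGFb, and these groups overlapped. Without descending control replicate 3 it rose in descending fibroblasts by 0.47 (standard error 0.05, edgeR adjusted p = 1.4e-09), and with all 6 libraries the value was 0.72 (95% confidence interval 0.05 to 1.39, edgeR adjusted p = 0.183). The ascending value was 0.04 (95% confidence interval -0.02 to 0.11, edgeR adjusted p = 0.249), and -0.071 with library totals. Ascending control lay above descending control, at 0.33 (standard error 0.04, edgeR adjusted p = 1.48e-05) without control replicate 3, and the value with it was 0.58 (95% confidence interval -0.09 to 1.25, edgeR adjusted p = 0.457). Ascending TGFb lay slightly below descending TGFb, at -0.10 (standard error 0.04, edgeR adjusted p = 0.0262). With library totals the latter was -0.049 (edgeR adjusted p = 0.3), and the descending change without control replicate 3 was 0.28.

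The kinases of the pyruvate dehydrogenase complex moved apart in ascending fibroblasts. *Pdk1* (chr2:71873224-71903858) was at 14.1, 15.2 and 19.5 normalized CPM in descending control, 15.01, 16.6 and 16.6 in descending TGFb, 23.4, 22.4 and 22.8 in ascending control and 18.9, 16.8 and 14.2 in ascending TGFb. Ascending control stood above the other 3 groups, which overlapped with each other. *Pdk1* fell with TGFb in ascending fibroblasts, at a log2 change of -0.47 (standard error 0.09, edgeR adjusted p = 0.000243), and was higher in ascending than descending control, at 0.65 (standard error 0.08, edgeR adjusted p = 2.49e-05) without control replicate 3, or 0.49 (95% confidence interval 0.07 to 0.91, edgeR adjusted p = 0.289) with it. In descending fibroblasts its value with TGFb was -0.03 (95% confidence interval -0.47 to 0.41, edgeR adjusted p = 0.942), and 0.13 (95% confidence interval -0.08 to 0.34, edgeR adjusted p = 0.284) without that library. The latter turned to -0.054 with library totals.

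*Pdk4* (chr6:5483351-5496309) was at 29.9, 29.3 and 23.7 normalized CPM in descending control, 25.7, 24.7 and 27.1 in descending TGFb, 29.6, 32.9 and 29.4 in ascending control and 42.1, 42.0 and 43.4 in ascending TGFb. Ascending TGFb lay above all other libraries. The gene rose with TGFb in ascending fibroblasts, at 0.47 (standard error 0.06, edgeR adjusted p = 2.4e-06), and was 1.64-fold higher in ascending than in descending TGFb, at 0.72 (standard error 0.06, edgeR adjusted p = 1.45e-10). In descending fibroblasts the value was -0.10 (95% confidence interval -0.45 to 0.25, edgeR adjusted p = 0.714), and without control replicate 3 edgeR called it lower, at -0.19 (standard error 0.08, edgeR adjusted p = 0.0444). On the same 5 libraries DESeq2 gave -0.18 (adjusted p = 0.201) and library totals -0.38 (edgeR adjusted p = 0.000194).

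Across the members, TGFb changed 9 of 10 genes in ascending fibroblasts, and *Ldha* was the exception. *Slc2a1*, *Hk2*, *Pfkfb3*, *Pgk1*, *Pkm* and *Pdk4* rose, and *Pfkp*, *Aldoa* and *Pdk1* fell. The call was a Benjamini-Hochberg adjusted p under 0.05 from edgeR's quasi-likelihood test over all 13917 genes tested, of which 55.8% were called, 28.2% as higher and 27.6% as lower. The members' share in either direction is read against that background, and their median log2 fold change was 0.11 against -0.0044 over all genes. Of the changes, *Hk2* reached 3.33-fold, and the other 8 called genes lay between 0.723 and 1.38-fold. With library totals in place of TMM the median of all genes moved to -0.119 and the calls over all genes from 3929 higher and 3838 lower to 2754 and 5176. Of the members 6 were then called, 3 higher and 3 lower, and relative to that median *Pgk1*, *Pkm* and *Ldha* stood at 0.11, 0.12 and 0.05. In 1 fit of all 12 libraries, where 15.97% of all genes were called, 3 members were called (*Hk2*, *Pfkp* and *Pdk4*). The other 6 were not, with edgeR adjusted p of 0.53 for *Slc2a1*, 0.137 for *Pfkfb3*, 0.768 for *Aldoa*, 0.839 for *Pgk1*, 0.573 for *Pkm* and 0.0578 for *Pdk1*.

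In descending fibroblasts all 6 libraries gave calls for *Slc2a1* and *Hk2*, both higher, where 8.07% of 13825 genes were called, 3.59% higher and 4.48% lower. Without control replicate 3, 8 members were called, against 52.9% of 14311 genes, 26.6% higher and 26.3% lower. *Slc2a1*, *Hk2*, *Pfkfb3*, *Aldoa*, *Pgk1*, *Pkm* and *Ldha* rose and *Pdk4* fell in that fit, while *Pfkp* and *Pdk1* gave the values above. The members' median log2 fold change was 0.37 against -0.012 over all genes. Leaving out any descending TGFb replicate gave 0 members called where 1.49 to 1.53% of all genes were called, leaving out control replicate 1 or 2 gave 1 where 3.38 and 2.64% were, and leaving out control replicate 3 gave the 8 above. With library totals the calls over all genes went from 496 higher and 619 lower to 351 and 817, and without control replicate 3 from 3811 and 3765 to 2271 and 6064, with a median of -0.198.

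**Figure D2:**
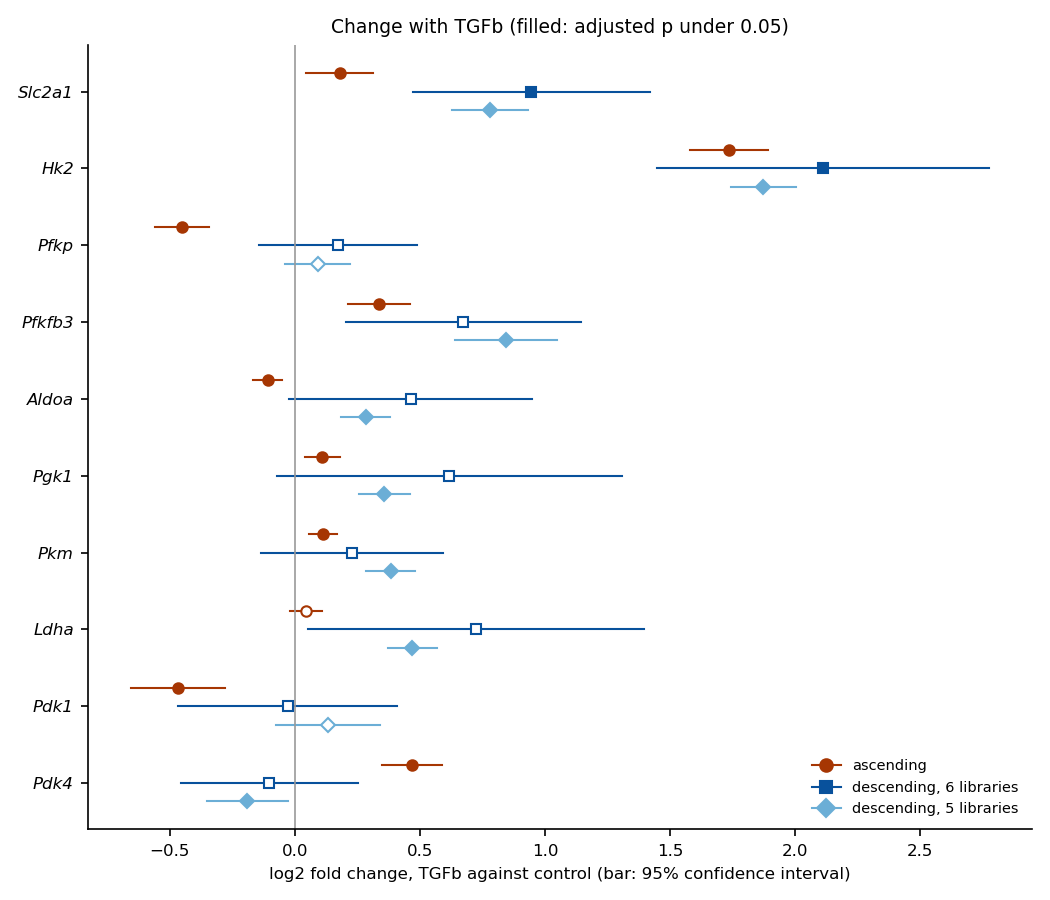
Log2 fold change of TGFb against control (horizontal axis) for each gene, with 95% confidence intervals, in ascending fibroblasts and in descending fibroblasts with 6 and with 5 libraries, filled where the edgeR adjusted p was under 0.05. Hk2 lay farthest to the right at both sites, at 1.73 and 2.11, and the intervals of the descending fit narrowed without control replicate 3.

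Between the sites in control cultures, *Pfkfb3* was the member called with all libraries, where 2.65% of 14090 genes were called, 1.19% higher and 1.47% lower in ascending. Without descending control replicate 3, 8 members were called against 31.6% of 14644 genes, 16.4% higher and 15.2% lower. *Pfkfb3*, *Pdk1*, *Aldoa*, *Ldha*, *Pgk1*, *Slc2a1* and *Pkm* were higher in ascending control, from 1.31 for *Pfkfb3* to 0.17 for *Pkm* on the log2 scale, and *Hk2* was lower. *Pfkp* at -0.01 (95% confidence interval -0.13 to 0.12, edgeR adjusted p = 0.95) and *Pdk4* at 0.06 (95% confidence interval -0.09 to 0.21, edgeR adjusted p = 0.553) were not called. With all 6 libraries *Pkm* was 0.01 (95% confidence interval -0.35 to 0.37, edgeR adjusted p = 0.965), *Pfkp* 0.08 (95% confidence interval -0.24 to 0.39, edgeR adjusted p = 0.784) and *Pdk4* 0.15 (95% confidence interval -0.20 to 0.50, edgeR adjusted p = 0.638).

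With TGFb, where no library stood apart in its mitochondrial share, 8 members differed between the sites, against 36.3% of 13678 genes, 18.1% higher and 18.2% lower. *Pfkfb3*, *Pdk4* and *Aldoa* were higher in ascending TGFb, and *Slc2a1*, *Hk2*, *Pfkp*, *Pkm* and *Ldha* were lower. *Slc2a1* gave -0.32 (standard error 0.06, edgeR adjusted p = 4.66e-05), and the values of *Hk2*, *Pfkp*, *Pfkfb3* and *Pdk4* are given above. The 3 smallest of the called differences were *Aldoa* at 0.10 (standard error 0.03, edgeR adjusted p = 0.0277), *Pkm* at -0.11 (standard error 0.03, edgeR adjusted p = 0.0171) and *Ldha* at -0.10. Leaving out single libraries ended the call of *Ldha* (without descending TGFb replicate 1 or 3 or ascending TGFb replicate 2 or 3, edgeR adjusted p of 0.0528, 0.0678, 0.135 and 0.0699). It ended that of *Aldoa* (without descending TGFb replicate 3 or ascending TGFb replicate 1, 2 or 3, 0.106, 0.0788, 0.0965 and 0.0626). It also ended that of *Pkm* (without ascending TGFb replicate 1 or 2, 0.0758 and 0.0537). *Pgk1* at 0.04 (95% confidence interval -0.03 to 0.12, edgeR adjusted p = 0.364) and *Pdk1* at 0.05 (95% confidence interval -0.15 to 0.25, edgeR adjusted p = 0.739) were not called. With library totals *Pkm* was -0.053 (edgeR adjusted p = 0.237), *Aldoa* 0.150, *Pdk1* 0.102 and *Pgk1* 0.097, and *Pgk1* was then called. The calls over all genes went from 2476 higher and 2487 lower to 3333 and 1950. In 1 fit of all 12 libraries, where 7.56% of all genes were called, *Pfkp*, *Pfkfb3* and *Pdk4* were called, and the edgeR adjusted p was 0.0856 for *Hk2*, 0.316 for *Slc2a1*, 0.857 for *Pkm*, 0.996 for *Aldoa* and 1 for *Ldha*.

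Whether the change with TGFb differed between the sites was tested by the interaction, in which a negative value means a less positive change in ascending fibroblasts. With all 12 libraries edgeR called 0 members and 0.806% of 14637 genes, 0.321% higher and 0.485% lower. An unadjusted edgeR p under 0.05 was reached by 5 members and by 1464 of the 14637 genes. DESeq2's Wald test called 3 members and 1.52% of 27496 genes. *Pfkp* came nearest, at -0.62 (95% confidence interval -0.92 to -0.33, edgeR adjusted p = 0.0665), followed by *Pdk4* at 0.57 (95% confidence interval 0.24 to 0.90, edgeR adjusted p = 0.144) and *Slc2a1* at -0.77 (95% confidence interval -1.23 to -0.30, edgeR adjusted p = 0.168). Without descending control replicate 3, 9 members were called, against 13.5% of 15013 genes, 6.07% higher and 7.4% lower. Of these, 8 were negative, among them *Slc2a1* at -0.60 (standard error 0.10, edgeR adjusted p = 8.6e-05), *Pdk1* at -0.60 (standard error 0.13, edgeR adjusted p = 0.00278), *Pfkp* at -0.54 (standard error 0.08, edgeR adjusted p = 2.5e-05) and *Ldha* at -0.42 (standard error 0.05, edgeR adjusted p = 1.73e-06). *Pdk4* was positive at 0.66 (standard error 0.09, edgeR adjusted p = 1.42e-05). With all 12 libraries *Pdk1* was -0.44 (95% confidence interval -0.90 to 0.02, edgeR adjusted p = 0.511) and *Ldha* -0.68 (95% confidence interval -1.33 to -0.03, edgeR adjusted p = 0.471). *Hk2*, the member with the largest change at each site, gave -0.13 (95% confidence interval -0.34 to 0.08, edgeR adjusted p = 0.466), and -0.37 (95% confidence interval -1.02 to 0.27, edgeR adjusted p = 0.625) with all libraries. With library totals the calls over all genes without that library went from 911 positive and 1111 negative to 1539 and 820. The interaction, the TGFb comparisons and the site comparisons share libraries and are not independent of each other.

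**Figure D3:**
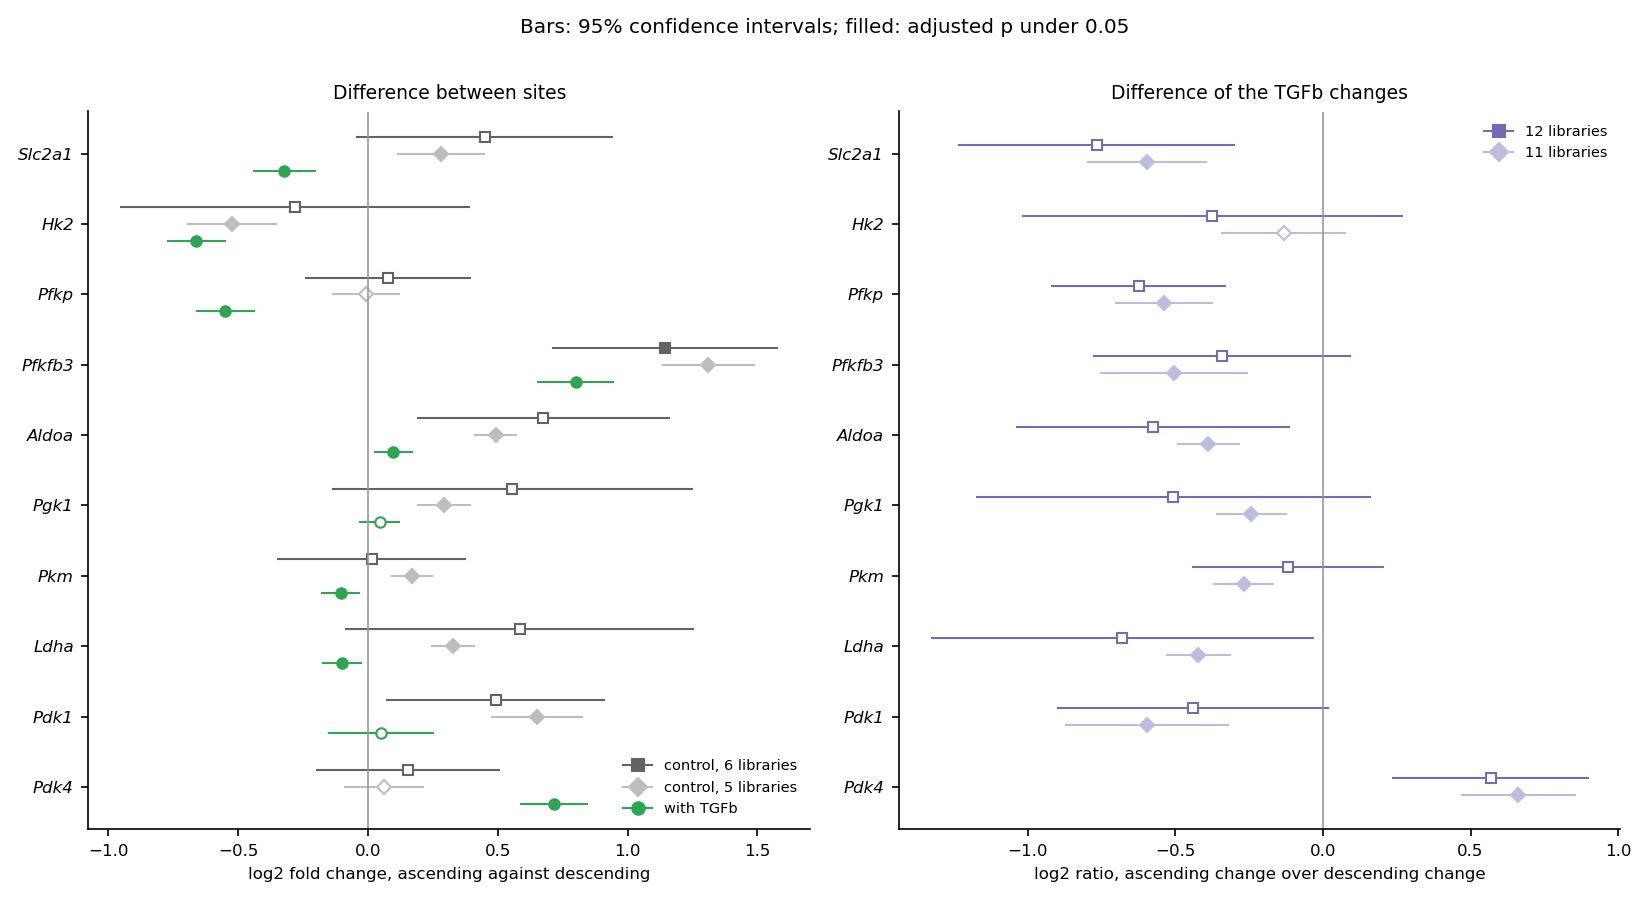
Left, log2 fold change of ascending against descending in control cultures with 6 and 5 libraries and with TGFb. Right, log2 ratio of the ascending to the descending TGFb change with 12 and 11 libraries, each with 95% confidence intervals and filled where the edgeR adjusted p was under 0.05. With TGFb Hk2 lay at -0.66 and Pfkfb3 at 0.80, and on the right Pdk4 was the gene to the right of 0, at 0.57 and 0.66.

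Several members belong to gene families, most of which share a reaction, with genes named here after their values were seen, and the share of each was computed from normalized CPM per kilobase, which does not depend on the scaling of a library. The length was that of all annotated exons, not of the transcripts the cells made, and the order of genes of unlike length depends on it. *Hk2* made up 15.3 ± 0.815% (SD, n = 3) of hexokinase RNA in ascending control and 41.1 ± 1.85% in ascending TGFb. In descending fibroblasts the share was 20.0 ± 5.02% in control, 22.8 ± 0.929% (SD, n = 2) without replicate 3, and 52.7 ± 0.548% with TGFb. The remainder was nearly all *Hk1*, the constitutive hexokinase, which fell slightly in ascending fibroblasts, at -0.18 (standard error 0.04, edgeR adjusted p = 0.00045), and gave -0.03 (95% confidence interval -0.14 to 0.07, edgeR adjusted p = 0.617) in descending fibroblasts without control replicate 3, or -0.01 (95% confidence interval -0.27 to 0.24, edgeR adjusted p = 0.955) with it. On this scale *Hk2* passed *Hk1* in descending TGFb and in no other group. The annotated exons covered 5969 bases for *Hk2* and 8532 for *Hk1*, and without division by length *Hk1* stayed above *Hk2* there.

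*Pfkp* had the smallest mean share of phosphofructokinase 1 per kilobase, at 12.8 ± 0.337% of the family in ascending control, 13.2 ± 0.251% in ascending TGFb, 16.8 ± 0.862% (n = 2) in descending control without replicate 3, 17.9 ± 2.04% with it, and 18.5 ± 1.16% in descending TGFb. Its annotated exons covered 13401 bases, against 6675 for *Pfkl* and 3340 for *Pfkm*, so this rank rests on the length used. Its share in ascending TGFb was near that in ascending control, and *Pfkl* and *Pfkm* fell as well, at -0.50 (standard error 0.04, edgeR adjusted p = 4.28e-08) and -0.50 (standard error 0.05, edgeR adjusted p = 3.67e-07). *Pfkfb3* held 70.8 ± 3.27% of the RNA of its family of 4 in ascending TGFb, 57.3 ± 3.42% in ascending control, 58.2 ± 0.963% in descending TGFb and 35.1 ± 1.80% (n = 2) in descending control without replicate 3, or 46.6 ± 20.0% with it, and *Pfkfb4* fell in ascending fibroblasts at -1.01 (standard error 0.14, edgeR adjusted p = 8.66e-06). The sum of this family was 8.71 ± 0.137 normalized CPM per kilobase in ascending control and 8.95 ± 0.224 in ascending TGFb. *Ldha* rose from 92.0 ± 0.442% to 95.2 ± 0.356% of lactate dehydrogenase RNA in ascending fibroblasts, where *Ldhb*, the heart-type subunit, fell at -0.73 (standard error 0.08, edgeR adjusted p = 4.17e-07). In descending fibroblasts the *Ldha* share went from 87.5 ± 0.0871% (n = 2, without replicate 3, and 84.6 ± 5.01% with it) to 94.1 ± 0.424%, and *Ldhb* fell at -0.71 (standard error 0.08, edgeR adjusted p = 2.44e-08) without that library, or -0.69 (95% confidence interval -0.99 to -0.39, edgeR adjusted p = 0.0263) with it. *Slc2a1* was 37.1 ± 2.19% of the RNA of 12 genes of the Slc2a transporter family, some of which carry fructose, urate or inositol, in ascending control and 35.5 ± 1.22% with TGFb. Its share was 29.7 ± 0.839% (n = 2) in descending control without replicate 3, 36.2 ± 11.4% with it, and 37.6 ± 0.292% in descending TGFb. In ascending TGFb *Slc2a10* followed at 32.0 ± 0.283%. *Aldoa*, *Pgk1* and *Pkm* made up 99.9% or more of their families in every group.

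Among the pyruvate dehydrogenase kinases, *Pdk4* took 39.3 ± 1.34% in ascending TGFb and 27.3 ± 1.15% in descending TGFb. *Pdk1* had the smallest share of the 4 in every group, from 6.91 ± 0.858% in ascending TGFb to 10.1 ± 0.367% in ascending control with all libraries, and at 6.70 ± 0.158% (n = 2) in descending control without replicate 3. Its annotated exons covered 7779 bases, against 3163 for *Pdk2*, and its rank depends on this length. *Pdk3* took 49.4 ± 0.861% in descending TGFb, 40.0 ± 3.40% in descending control, 41.9 ± 0.410% (n = 2) there without replicate 3, 35.2 ± 2.45% in ascending control and 38.4 ± 0.347% in ascending TGFb. *Pdk2* was called lower with TGFb, at -0.58 (standard error 0.07, edgeR adjusted p = 2.01e-06) in ascending and -0.50 (standard error 0.10, edgeR adjusted p = 9.81e-05) in descending fibroblasts without control replicate 3, where all libraries gave -0.55 (95% confidence interval -0.90 to -0.20, edgeR adjusted p = 0.0771).

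**Figure D4:**
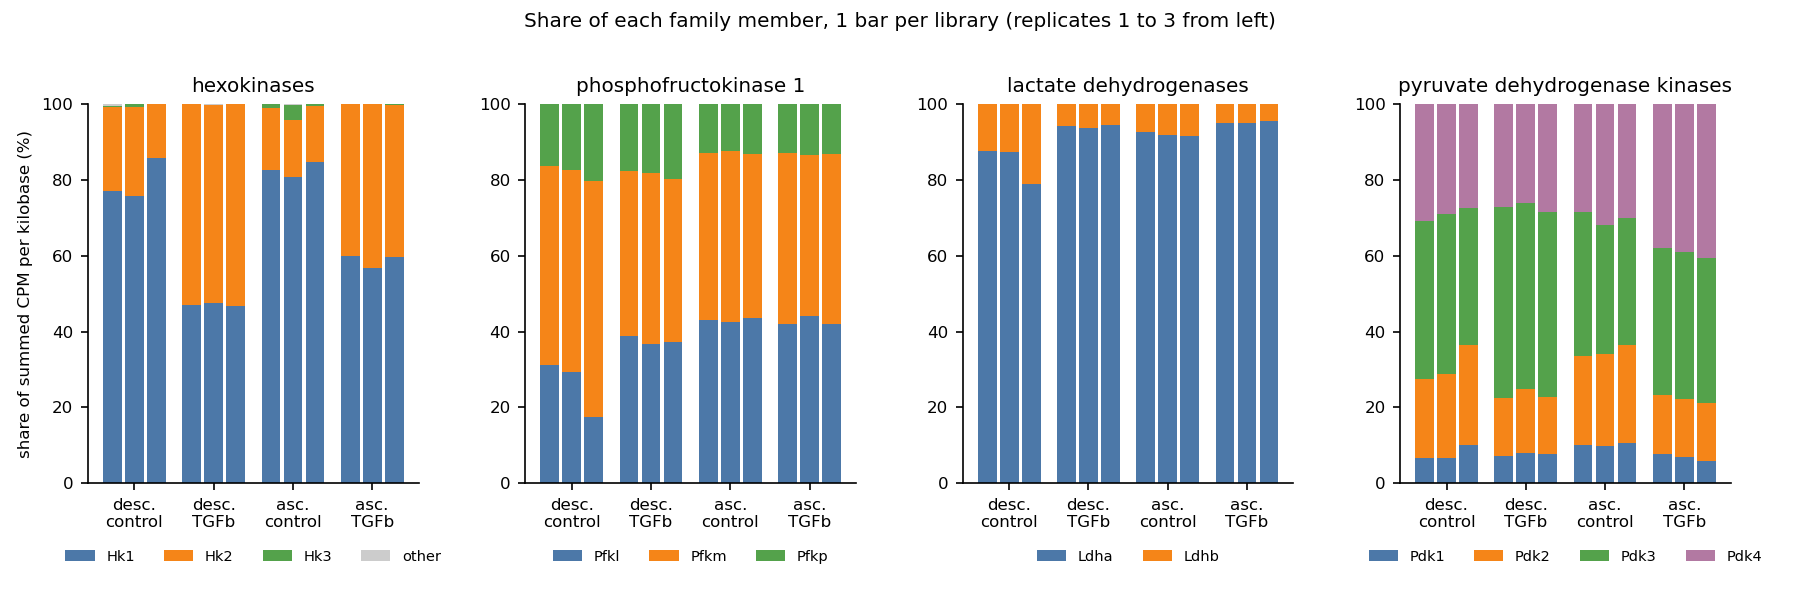
Share (%) of normalized CPM per kilobase of each gene in 4 enzyme families, 1 stacked bar per library in the order of replicates 1 to 3 within each group. The Hk2 share rose with TGFb at both sites, and the Pdk4 share was largest in ascending TGFb.

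Around the members, 53 further genes of glucose uptake, glycolysis, lactate handling and the pyruvate dehydrogenase switch were counted from 6 lists. In ascending fibroblasts 37 of the 53 were tested, 12 rose with TGFb and 16 fell, or 75.7% against 55.8% of all genes, with a median log2 fold change of -0.18. In descending fibroblasts without control replicate 3, 38 were tested, 15 rose and 11 fell, or 68.4% against 52.9%, with a median of 0.13. With all 6 libraries 2 rose and 2 fell of 37 tested, or 10.8% against 8.07%. Of 3 genes chosen after their values were seen, *Slc16a3*, the lactate exporter MCT4, rose by 0.96 (standard error 0.07, edgeR adjusted p = 3.43e-09) in ascending and 1.82 (standard error 0.10, edgeR adjusted p = 7.61e-16) in descending fibroblasts without control replicate 3, where all libraries gave 2.30 (95% confidence interval 0.63 to 3.96, edgeR adjusted p = 0.107). *Eno1* and *Gapdh*, abundant enzymes of the pay-off phase, rose by 0.32 (standard error 0.03, edgeR adjusted p = 3.72e-08) and 0.16 (standard error 0.03, edgeR adjusted p = 0.000146) in ascending fibroblasts. Other genes hold 26.0% and 25.1% of their 50-base stretches. Their list, glycolytic enzymes after glucose phosphorylation without the members, had 4 higher and 5 lower of 13 tested there, with a median of -0.16. In the same libraries *Gpi1*, the isomerase after hexokinase, fell, at -0.16 (standard error 0.03, edgeR adjusted p = 0.000473). Between control cultures *Gpi1* was higher in ascending fibroblasts, at 0.60 (standard error 0.10, edgeR adjusted p = 0.0397) with all libraries and 0.57 (edgeR adjusted p = 1.23e-07) without descending control replicate 3.

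The genes of the wider lists with the largest called changes in ascending fibroblasts with TGFb were *Plin2*, which coats lipid droplets (1.47, standard error 0.06, edgeR adjusted p = 2.29e-12), *Myc* (1.42, standard error 0.05, edgeR adjusted p = 4.23e-13) and *Slc2a3*, the neuronal glucose transporter (1.11, standard error 0.27, edgeR adjusted p = 0.00203), as higher. *Epas1*, which encodes HIF-2 alpha (-3.67, standard error 0.05, edgeR adjusted p = 5.07e-18), and *Adm*, the vasodilator adrenomedullin (-2.80, standard error 0.06, edgeR adjusted p = 7.53e-16), were lower. *Cd36*, a fatty acid carrier, was also called lower, but its control mean of 14.9 ± 21.7 normalized CPM (SD, n = 3) shows that the control libraries differed widely. In descending fibroblasts, ranked with all 6 libraries, *Bhlhe40* (1.57, standard error 0.17, edgeR adjusted p = 0.00553), *Eno3*, the muscle enolase (1.42, standard error 0.26, edgeR adjusted p = 0.028), and *Myc* (1.37, standard error 0.27, edgeR adjusted p = 0.0347) were higher, and *Epas1* (-3.79, standard error 0.25, edgeR adjusted p = 0.00156), *Adm* (-3.05, standard error 0.11, edgeR adjusted p = 0.000407) and *Pygm*, muscle glycogen phosphorylase (-2.09, standard error 0.45, edgeR adjusted p = 0.0447), were lower. Without control replicate 3 these were *Bhlhe40* at 1.44 (edgeR adjusted p = 2.15e-16), *Eno3* at 1.20 (edgeR adjusted p = 2.4e-12), *Myc* at 1.72 (edgeR adjusted p = 3.45e-17), *Epas1* at -3.57 (edgeR adjusted p = 7.47e-25), *Adm* at -3.07 (edgeR adjusted p = 1.66e-27) and *Pygm* at -2.10 (edgeR adjusted p = 3.13e-06). The ranking then differed, as *Slc16a3*, given above, rose more than *Bhlhe40*, *Eno3* and *Myc*.

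Calls in the lists are set against all genes, of which 28.2% were higher and 27.6% lower in ascending fibroblasts. There regulators of glycolysis genes had 8 higher and 7 lower of 19 tested, and hypoxia-responsive genes outside glycolysis had 6 higher and 9 lower of 18 tested, with a median of -0.33. In descending fibroblasts without control replicate 3 the hypoxia-responsive genes had 8 higher and 4 lower of 18, against 26.6% and 26.3% of all genes, with a median of 0.19. With all 6 libraries they had 4 higher and 1 lower, against 3.59% and 4.48%, with a median of 0.18. Gluconeogenesis enzymes had 2 higher and 1 lower of 3 tested in ascending fibroblasts, pentose phosphate enzymes 2 and 3 of 8, glycogen enzymes 4 and 4 of 10, and PPAR and fasting-responsive genes 4 and 4 of 12. Pyruvate dehydrogenase subunits and carriers had 4 higher and 2 lower of 7.

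By site, the largest called differences in the wider lists were *Gyg*, the glycogen primer (1.68, standard error 0.18, edgeR adjusted p = 0.0111), *P4ha1* (0.73, standard error 0.09, edgeR adjusted p = 0.0192) and *Gpi1* as higher in ascending control, and *Fabp4* (-3.50, standard error 0.51, edgeR adjusted p = 0.0276) and *P4ha2* (-1.15, standard error 0.17, edgeR adjusted p = 0.029) as lower. *P4ha1* and *P4ha2* are collagen prolyl hydroxylases. Without descending control replicate 3 the differences were 1.52 (edgeR adjusted p = 8.87e-11) for *Gyg*, 0.70 (edgeR adjusted p = 1.52e-09) for *P4ha1*, -3.28 (edgeR adjusted p = 1.43e-07) for *Fabp4* and -1.30 (edgeR adjusted p = 7.34e-10) for *P4ha2*. With TGFb, *Epas1* (1.01, standard error 0.10, edgeR adjusted p = 8.78e-10) and *Gyg* (0.78, standard error 0.05, edgeR adjusted p = 6.58e-14) were among the genes higher in ascending fibroblasts, and *Fabp4* (-3.35, standard error 0.18, edgeR adjusted p = 4.58e-15) and *Cd36* (-3.10, standard error 0.27, edgeR adjusted p = 1.26e-10) were lower. *Pck1*, of gluconeogenesis, was at or under the floor in every ascending TGFb library and at least 5.50-fold lower there, with the floor taken per library. *P4ha1* was the gene of all lists called in the interaction with all libraries, at -0.49 (standard error 0.09, edgeR adjusted p = 0.0316), and -0.46 (edgeR adjusted p = 1.32e-07) without descending control replicate 3.

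**Figure D5:**
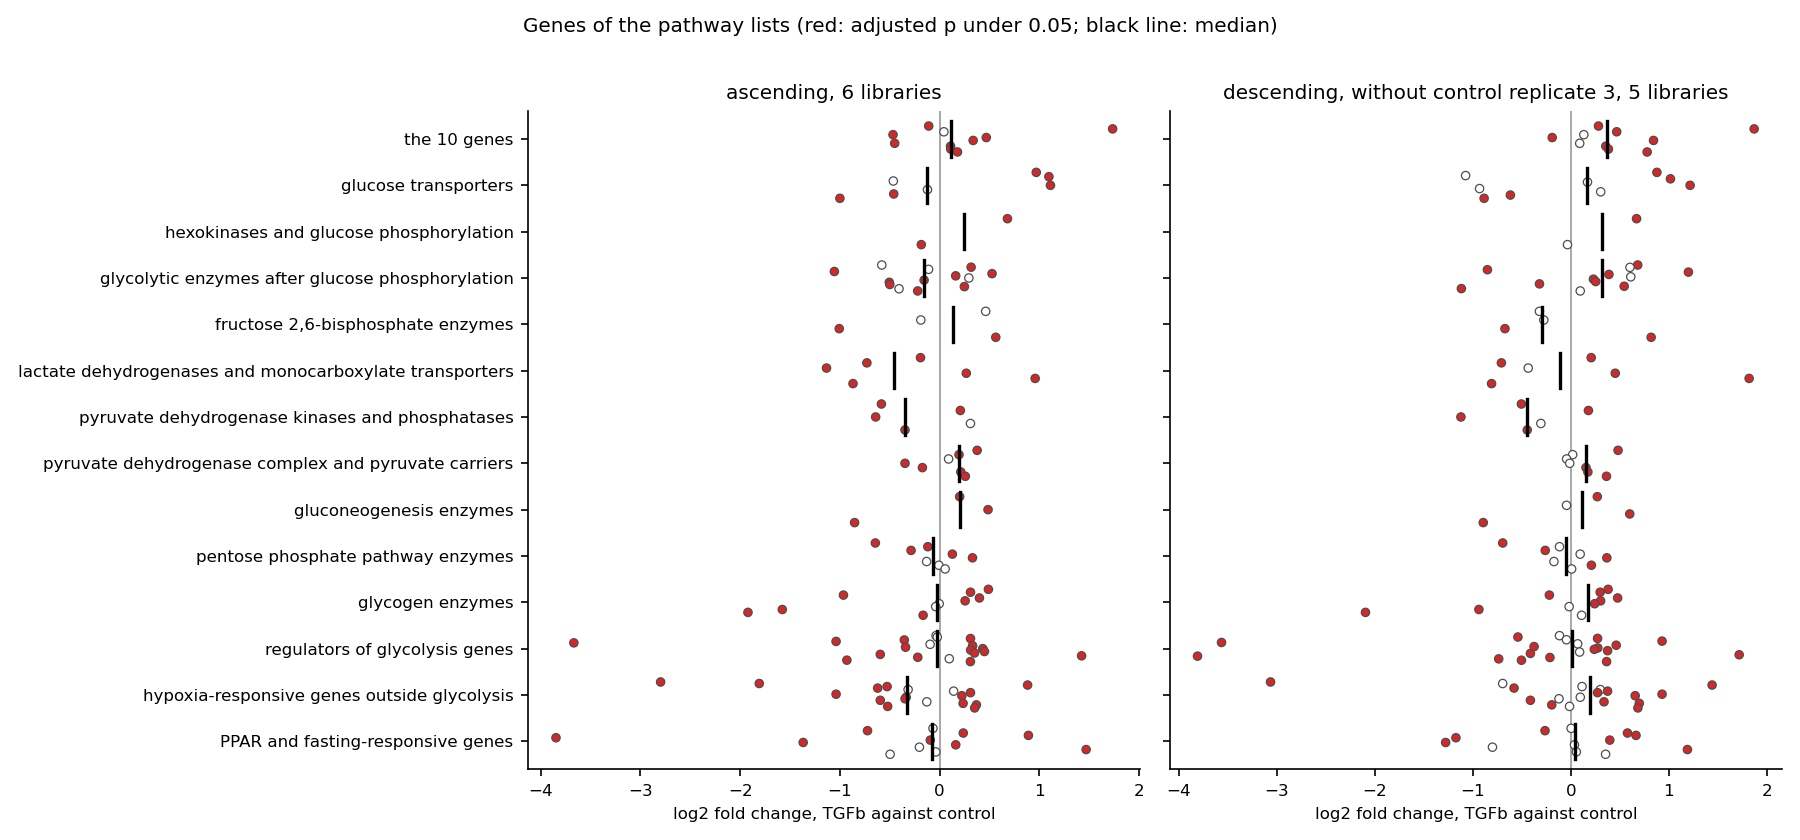
Log2 fold change with TGFb (horizontal axis) of each tested gene of the 10 members and of 13 lists of related genes, in ascending fibroblasts with 6 libraries and descending fibroblasts without control replicate 3, red where the edgeR adjusted p was under 0.05, with a black line at the median. Most lists hold genes on both sides of 0, and Hk2 is the member farthest to the right, at 1.73 and 1.87.

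The genes whose level followed *Hk2* most closely over the 12 libraries, by Pearson's r of log2 CPM among 14637 genes, were *Masp1* (r = 0.996), *Rcn3* (0.993), *Csrp2* (0.992), *Mrps18b* (0.992) and *Itga5* (0.990). Over the 11 libraries without descending control replicate 3 they were *Ncam1* (0.997), *Bok*, *Acta2*, *Masp1* and *Slc1a4* (each 0.995 or 0.996). Libraries of a group share site and treatment, so these values describe the pattern and carry no p. Of the other members, *Slc2a1* was nearest over the 12 libraries, at 0.831, and *Pdk1* lowest, at -0.591. The 8 smooth muscle markers, which include *Acta2* and none of which was at the floor, summed to 1584 to 1697 normalized CPM in ascending control, 2513 to 2559 in descending control, 5112 to 5199 in ascending TGFb and 7967 to 8388 in descending TGFb. Their part in the levels of *Hk2* and the other members was not tested. The 6 macrophage and leukocyte markers summed to 54.5 to 357 in ascending control and 14.0 to 47.3 in the other groups, and their part was not tested either.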

How the data were processed

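RNA was sequenced in 12 libraries, 3 in each of 4 groups. The authors deposited raw read counts per gene symbol, made, per the study's methods, by aligning reads to mm10 and counting them with featureCounts. The submitters' notes also name STAR and FastQC, and the versions, strand setting and treatment of reads that map to several genes are not given in the sources used here. The authors' own tests with DESeq2 are not used.

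Counts were tested with edgeR 4.0.16 in R 4.3.3: TMM scaling, a filter on low counts (filterByExpr, minimum count 10, minimum total 15), the quasi-likelihood F-test fitted to the compared groups alone, and p-values adjusted by Benjamini-Hochberg across every gene tested, at 0.05. A standard error is the absolute log2 change divided by the square root of F. Tables were joined in Python 3.11.15 with pandas 2.3.3 and drawn with matplotlib 3.10.9. The test was checked on simulated counts in which all libraries had the same spread. That check does not cover a library that stands apart like descending control replicate 3. Library totals ran from 16250126 to 23892943 counts.

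The members and gene lists were chosen with earlier results of these data known. The text names all members, the 3 genes per direction of the other lists with the largest called change in each comparison, and the 5 genes most correlated with the member of widest range; other genes are named as chosen after their values were seen. A gene that this rule names is not reported here. Alternatives were DESeq2 1.42.0, its size factors in edgeR, no filter, a filter of 10 counts in every library, removal of mitochondrial genes, all 12 libraries in 1 fit, a replicate block, and each library left out. Library totals in place of TMM, alone and without descending control replicate 3, and DESeq2 without that library were added after seeing the data. Libraries with the same replicate number are not stated to come from the same animal.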

Additional observations from a re-analysis of the deposited data

Results flagged for a closer look

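For 4 members the groups did not overlap and lay in opposite directions in the matching comparisons. The share of all genes that meet this rule was not computed, so the count is not read as a trait of the members. *Slc2a1* was higher in ascending than descending control at a log2 value of 0.45, and lower with TGFb at -0.32. *Ldha* gave 0.58 in control and -0.10 with TGFb. The change with TGFb of *Pfkp* was -0.45 in ascending and 0.17 in descending fibroblasts, and that of *Aldoa* was -0.11 and 0.46. Without descending control replicate 3 the values that use it were 0.28 for *Slc2a1* and 0.33 for *Ldha* in control, 0.28 for *Aldoa* in descending fibroblasts, and 0.09 (95% confidence interval -0.04 to 0.22, edgeR adjusted p = 0.237) for *Pfkp* there, or -0.097 with library totals. edgeR's interaction test called 0 of these 4 with all 12 libraries and all 4 without descending control replicate 3. With all 12 libraries, all 4 had an unadjusted edgeR p under 0.05, as had 1464 of 14637 genes. The shares of all genes called were 0.806% with that library and 13.5% without it. These 4 were picked for opposite directions, which the interaction measures, so their calls are no separate test of the pattern. Some of the single directions did not pass their own test with all libraries, as given with each gene.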

How the results depend on the processing

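Over the alternatives for single members, 674 results kept their direction and side of the threshold, 74 passed it anew, 48 lost it and 14 changed sign. Counts of members called are given with the share of all genes called in the same fit. With all 12 libraries in 1 fit, which pools the spread of descending control replicate 3 with the other groups, the counts were 3 (15.97% of all genes) with TGFb in ascending fibroblasts, 5 (24.4%) in descending fibroblasts, 2 (10.6%) between sites in control and 3 (7.56%) between sites with TGFb. In descending fibroblasts the count was 1 (3.45%) with no filter, 1 (8.45%) with library totals, and without descending control replicate 3 it was 7 (24.8%) with DESeq2 and 7 (58.2%) with library totals. Between sites in control it was 8 (14.0%) with DESeq2 and 8 (31.7%) with library totals without that library. For the interaction it was 3 (1.52%) with DESeq2, 1 (1.499%) with at least 10 counts in every library, and without that library 9 (6.34%) with DESeq2 and 9 (15.7%) with library totals. The cause of the other shifts was not tested.

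Signs changed with library totals for *Pgk1* (-0.0044), *Pkm* (-0.0027) and *Ldha* (-0.071) in ascending fibroblasts. In descending fibroblasts *Pdk1* was 0.00029 with no filter and 0.14 with DESeq2 without descending control replicate 3, and *Pfkp* was -0.097 with library totals without it. Between sites in control *Pfkp* was -0.0042 with DESeq2 and -0.030 with library totals, both without it.

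Leaving out single libraries gave 0 to 8 calls in descending fibroblasts (1.49 to 52.9% of all genes), 0 to 8 between sites in control (0.226 to 31.6%), 5 to 8 between sites with TGFb (31.05 to 33.3%) and 0 to 9 for the interaction (0.166 to 13.5%). The range was -0.12 to 0.13 for *Pdk1* in descending fibroblasts, -0.051 to 0.15 for *Pdk1* between sites with TGFb, -0.0065 to 0.14 for *Pfkp* and -0.068 to 0.17 for *Pkm* between sites in control. With the replicate block, the calls were 9 (55.8%) in ascending fibroblasts, 0 (0.687%) in descending fibroblasts and 0 (0%) between sites in control. Same-numbered libraries correlated at -0.026 to 0.0878 in their deviations from group means over 14637 genes, and not every library correlated best with its own number. These values do not show whether such libraries share an animal or a culture, which the sources do not state.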
